A study of Rattus norvegicus with 21 samples.

Results

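The 44 genes described here encode the proteins that carry a cell into mitosis, build and check its spindle, separate its chromosomes and divide it. They were taken by gene symbol from a list of mitosis and spindle genes, and kept where the mRNA table held a row of that symbol and its mean over the 9 libraries was 10 normalized counts or more. A row was found for 43 of them, and all 43 passed this minimum, at means between 1313 and 18498 normalized counts. They are 43 of 14410 genes tested and of 32750 rows in all. The list was chosen with earlier results of these data known. No row carried the symbol Ccnb2, the gene of cyclin B2, which is therefore not described further.

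Messenger RNA was sequenced from INS-1 832/13 cells, a clonal rat insulinoma line that secretes insulin in response to glucose and carries a human insulin transgene. All cells were plated 24 h before the exposure began, in 12-well plates. One group of 4 libraries is labelled untreated, and the other, of 5 libraries, is labelled as exposed to 1 µM inorganic arsenic (iAs) for 24 h. Whether the replicates are independent cultures is not stated in the labels, and each p-value reflects only how much these libraries differ among themselves, which may be technical.

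Entry into mitosis is driven by the kinase CDK1 bound to A- and B-type cyclins, which phosphatases of the CDC25 family switch on. Kinetochores join chromosomes to spindle microtubules, and the spindle checkpoint holds back the anaphase-promoting complex until all are attached. Most of these genes are transcribed late in the cell cycle, under MuvB complexes with B-MYB and FOXM1 and, in resting cells, under repression by the DREAM complex. Adult beta cells rarely divide, whereas insulinoma lines cycle in culture.

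Before the results, a limit of the labels has to be given. Hmox1, encoding heme oxygenase 1, is known as a gene that arsenic induces, yet it lay between 12135 and 16234 normalized counts in the libraries labelled untreated and between 1175 and 2337 in those labelled iAs. Mt1 (log2 difference -2.04), Nqo1 (-1.07) and Gclm (-1.06), also known as genes of metal and oxidant responses, were lower in the libraries labelled iAs as well. Every direction below is therefore that of the labels. Lane 3 held every untreated library and lane 4 every one labelled iAs, and the effects of lane and label cannot be told apart. Beta cell markers were present in every library, at a summed level of 2343611 to 2998375 normalized counts over 14 genes. The labels also give liver as tissue, but Alb was at 0 in 8 of the 9 libraries and Cyp2e1 at 0 in all 9, while Fgb and Serpina1 made up most of the sum over 8 hepatocyte markers. That sum moved with the label, from 835 to 1252 normalized counts in the untreated libraries and from 405 to 648 in those labelled iAs. The sum over 5 fibroblast markers, nearly all Pdgfra with Dcn at 0, also did not overlap, at 327 to 426 against 193 to 325. Endothelial markers (39.7 to 114.7 against 77.4 to 174.5 over 3 genes) and immune markers (23.2 to 47.9 against 36.3 to 78.5 over 4 genes) overlapped as sums. Among the latter Ptprc was at 0 throughout, and Cd68 was at 19.6 to 26.8 against 30.6 to 67.8, without overlap. The part of these markers in the results on mitosis genes was not tested. The libraries held about 44426205 to 65862779 reads, judged from the value of 1 read, and the 2 deepest were untreated replicates 1 and 3.

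The 43 members described here were more often higher than lower in the libraries labelled iAs. In a longer list of further mitosis genes, given below, the share called higher was near that of all genes tested (15.3% against 15.1%). There 5.56% were called lower, against 14.9%. Of 43 members, 21 were called higher and 0 lower in limma (Benjamini-Hochberg adjusted p under 0.05), and 2 were lower at an unadjusted p under 0.05. Over all genes tested, 15.1% were called higher and 14.9% lower, 30.0% in all. The differences were small. The called members rose between 1.16-fold and 1.41-fold, and no member reached 1.5-fold, a size that 8.24% of all genes tested passed together with the call. Differences are given as log2(normalized count + 1) in the libraries labelled iAs minus the same in those labelled untreated. Their median over the 43 members was 0.17, against 0.00 over all genes tested, and 37 members lay above 0, as did 49.9% of all genes. In 18 members every library labelled iAs was above every library labelled untreated, against 13.0% of all genes tested, and in 0 members every one was below, against 12.9%. Because these are bulk libraries, a larger share of cells in mitosis and more transcript per cell cannot be told apart.

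**Figure D1:**
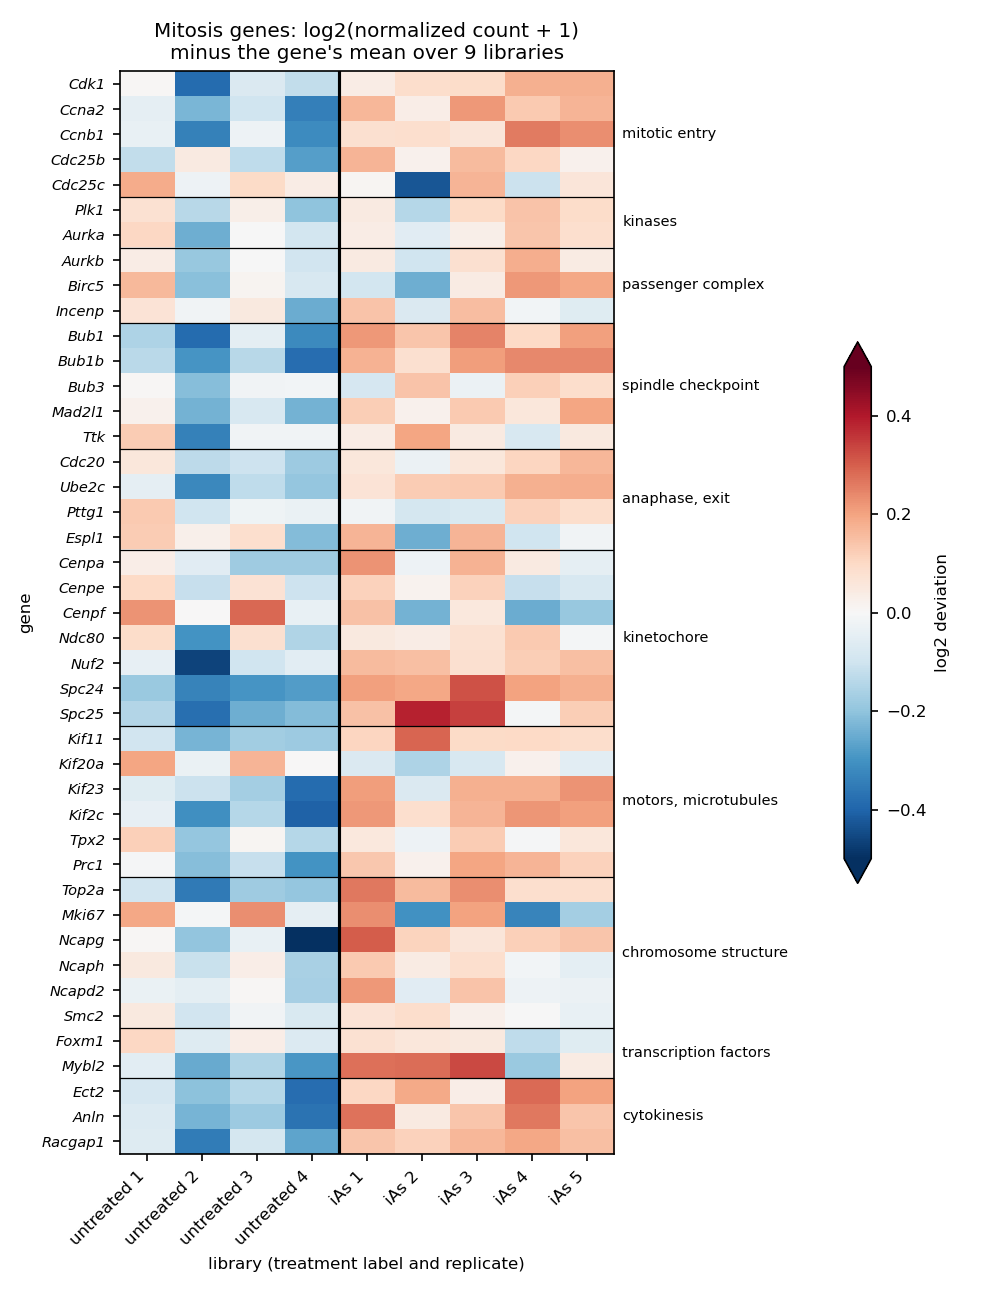
Heat map of log2(normalized count + 1) for each of 43 mitosis genes (rows, grouped by role) in 9 libraries (columns), as deviation from the gene's mean over the 9. Colours saturate at deviations of 0.5. Libraries labelled iAs are mostly red and untreated replicates 2 and 4 mostly blue, while untreated replicates 1 and 3 lie between.

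The groups were not uniform. The median deviation of the members from their own mean over the 9 libraries was 0.005 and -0.036 in untreated replicates 1 and 3 but -0.208 and -0.181 in untreated replicates 2 and 4. In 35 members both untreated replicates 1 and 3 were above both of the other two, and untreated replicate 2 or 4 was the lowest of all 9 libraries in 34. Among the libraries labelled iAs the median deviation ran from 0.037 in replicate 2 to 0.130 in replicate 1. For 12 members iAs replicates 1 and 3 were both above replicates 2, 4 and 5. Untreated replicates 1 and 3 were also the deepest libraries. The second stretch of bases in their descriptions was the same in both. It differed from the one shared by untreated replicates 2 and 4 and all libraries labelled iAs. Depth and these bases therefore cannot be told apart by leaving out untreated replicates 1 and 3, and the part of either in the split was not tested. With these 2 left out, a comparison added after the data were seen, 21 members were again called higher and 0 lower (0 lower at an unadjusted p under 0.05), of which 19 were among the original 21. Among the libraries whose code in the description has the same, most common ending (untreated replicates 1 and 3, iAs replicates 1, 4 and 5), 15 were higher and 1 was lower. In that set the lane, the depth and the bases above all follow the label, and their part in the calls was not tested. The titles give other codes for untreated replicates 2 and 3 and iAs replicates 3 and 4. By title this ending would fall on untreated replicates 1 and 2 and iAs replicates 1, 3 and 5, a split that was not run. Each of the other endings was carried by a single pair of libraries, which allows no fit. With the ending as a term in the fit, 22 were higher and 1 lower.

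**Figure D2:**
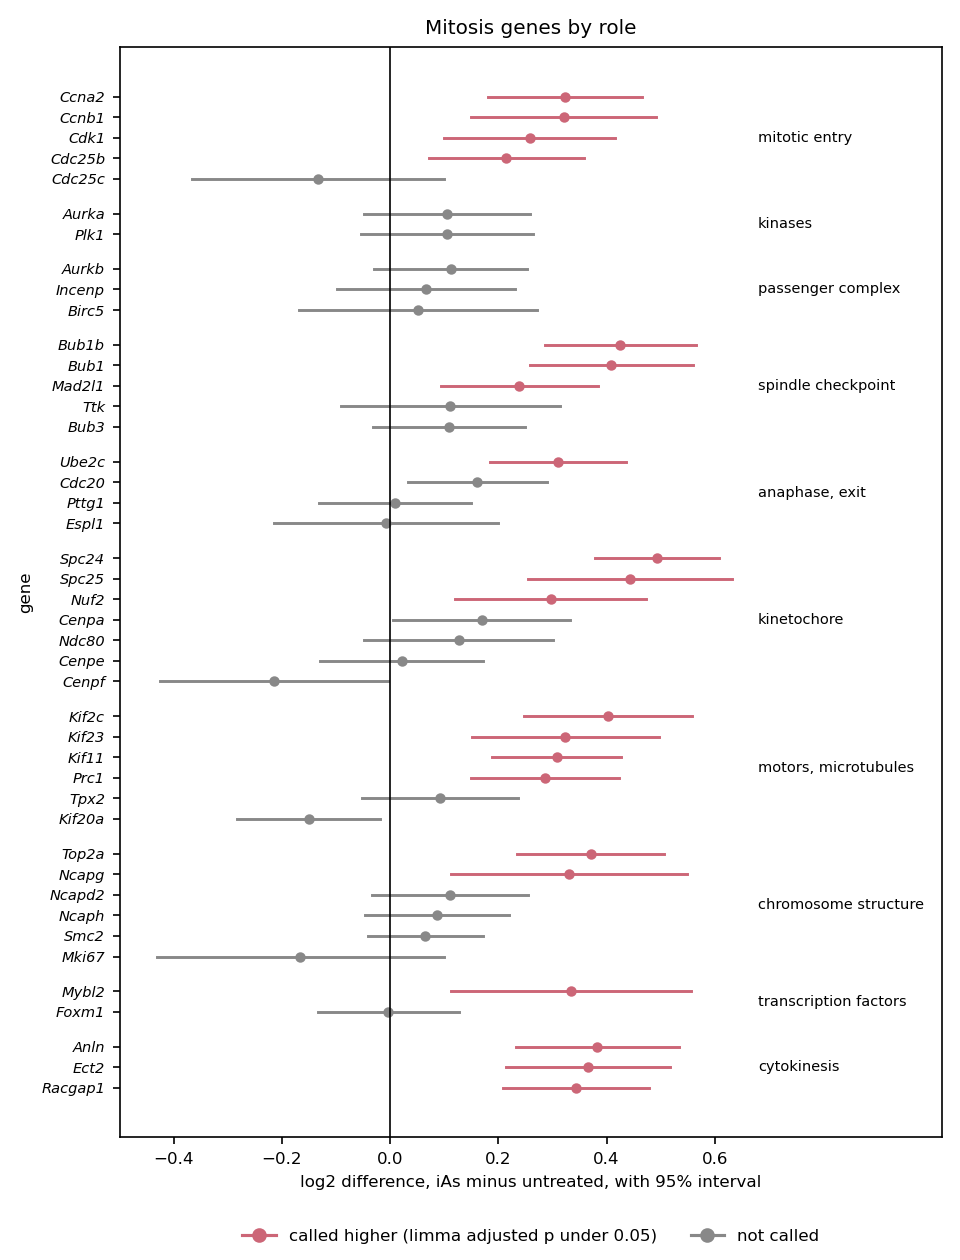
Log2 difference of each mitosis gene (point) with its 95% interval (line) from limma, libraries labelled iAs (n = 5) minus untreated (n = 4), by role. The 21 members called higher lie between 0.21 and 0.49, and those not called between -0.21 and 0.17.

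Promoter sequences are shown because all 21 called members were higher and many late cell cycle genes are known to share promoter elements. RefSeq windows of build GRCr8, from 250 bases before to 50 after the gene start, matched 36 of the 43 members. Ccna2, Aurkb, Incenp, Ube2c, Tpx2, Foxm1 and Racgap1 were not matched. Of the members called higher whose values are given per library, the 7 whose window held a motif are printed. A match in each was therefore fixed by the choice, and Kif2c and Mybl2, which held none, are not printed. The stretches run from 100 bases before to 10 bases after the start, 5′ to 3′ on the gene's strand. Capitals mark the cell cycle genes homology region (CHR, TTTGAA or TTCAAA on the other strand) and the CCAAT box (CCAAT or ATTGG on the other strand).
Cdk1 (chr20:19265193-19265302, plus strand): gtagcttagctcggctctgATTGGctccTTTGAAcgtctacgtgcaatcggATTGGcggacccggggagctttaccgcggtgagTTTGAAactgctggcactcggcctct
Ccnb1 (chr2:33655216-33655325, minus strand): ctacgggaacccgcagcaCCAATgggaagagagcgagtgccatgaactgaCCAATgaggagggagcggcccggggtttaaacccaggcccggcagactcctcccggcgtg
Bub1b (chr3:126016967-126017076, plus strand): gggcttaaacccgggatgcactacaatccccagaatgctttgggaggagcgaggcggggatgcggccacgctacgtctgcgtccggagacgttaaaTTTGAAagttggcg
Spc24 (chr8:28581290-28581399, minus strand): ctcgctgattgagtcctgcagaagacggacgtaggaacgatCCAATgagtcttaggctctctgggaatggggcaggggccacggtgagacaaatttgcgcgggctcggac
Kif11 (chr1:244536767-244536876, plus strand): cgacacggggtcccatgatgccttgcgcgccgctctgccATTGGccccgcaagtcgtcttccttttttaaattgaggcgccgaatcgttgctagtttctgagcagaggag
Top2a (chr10:84473084-84473193, minus strand): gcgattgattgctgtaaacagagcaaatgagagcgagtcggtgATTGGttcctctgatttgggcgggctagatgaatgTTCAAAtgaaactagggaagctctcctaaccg
Anln (chr8:29197504-29197613, minus strand): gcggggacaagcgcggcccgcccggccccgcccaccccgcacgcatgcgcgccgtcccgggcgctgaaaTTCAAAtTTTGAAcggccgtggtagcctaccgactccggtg

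These windows differ in what they hold. Cdk1 has CCAAT boxes and CHR letters in turn, with CHR letters beginning 16 bases before the start, and Top2a has 1 CCAAT box 57 bases and CHR letters 22 bases before it. Of the marked letters, Ccnb1, Spc24 and Kif11 show CCAAT boxes only. Forms of the CHR other than TTTGAA and TTCAAA were not searched. Bub1b and Anln show CHR letters only, in Anln 2 matches that lie next to each other. Over the whole window, CHR letters were found in 24 of 36 members (66.7%), against 19.4% of 27457 genes with a RefSeq promoter. CCAAT boxes were found in 26 (72.2%), against 39.6%, and both together in 19 (52.8%), against 8.50%. Before the start alone, CHR letters were found in 17 members (47.2%), against 17.2%, and both together in 16 (44.4%), against 6.81%. E2F core letters, searched on both strands as TTCCCGC and, in a second form that can overlap a CCAAT box, as TTGGCGC, were found in 5 members (13.9%), against 7.03%. CHR letters stood in 11 of 18 promoters of members called higher and in 13 of 18 of those not called, and CCAAT boxes in 11 and 15. The median log2 difference was 0.17 (0.165) over the 24 members with CHR letters and 0.26 over the 12 without. Aurka, Bub1, Kif2c and Mybl2 held none of the 3 motifs, in the forms searched, in this window. A match of letters is a description and does not show that a factor binds.

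**Figure D3:**
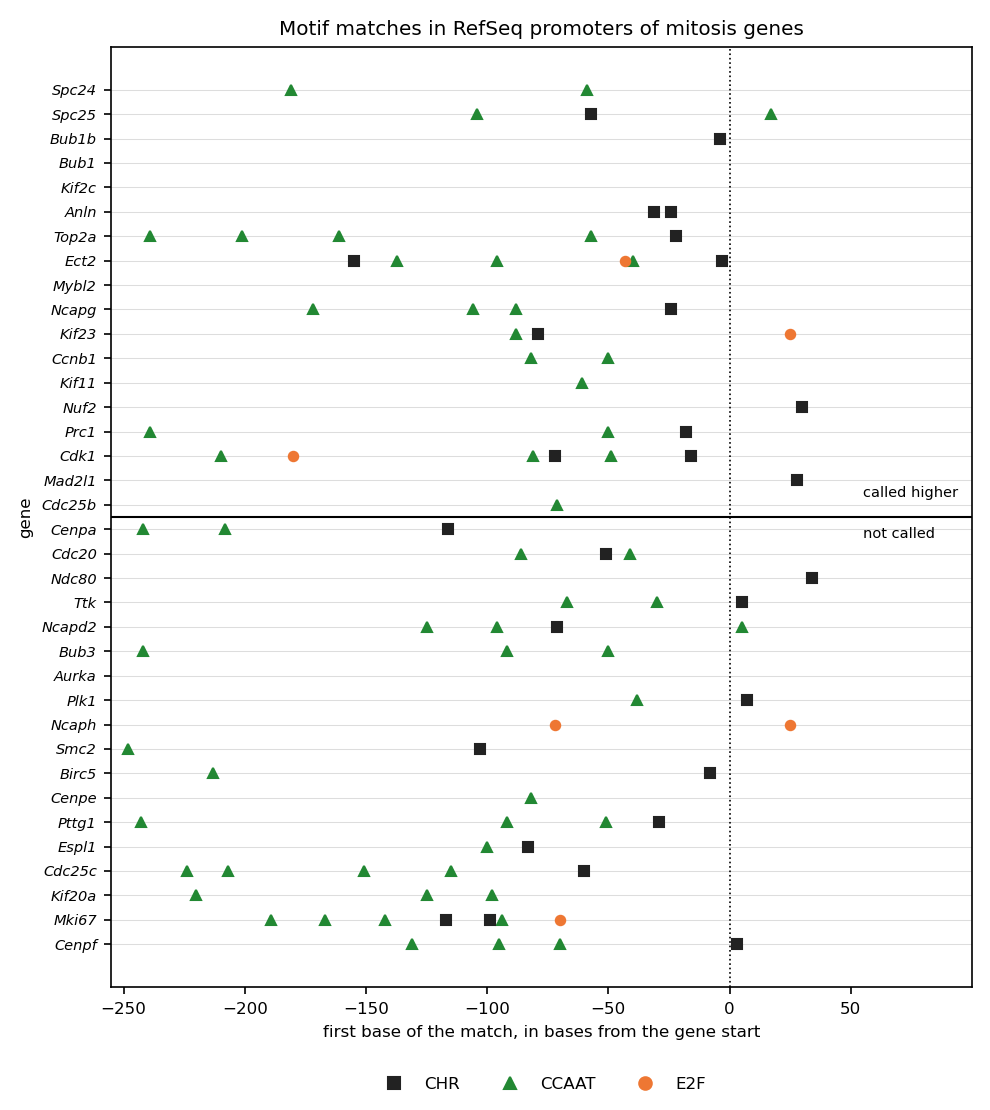
Position of motif matches (first base of the match, in bases from the gene start) in the RefSeq promoters of 36 mitosis genes, ordered by log2 difference within those called higher (top) and not called (bottom). CHR letters stand in 11 of 18 promoters of the former and 13 of 18 of the latter.

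Counts by role are over few genes each, beside 15.1% of all genes tested called higher and 14.9% lower. Of 5 measured genes of mitotic entry 4 were called higher and Cdc25c was not called, with a median log2 difference of 0.26. Cdk1 (ENSRNOG00000000632), the kinase that drives cells into mitosis, had 13887, 10614, 13184 and 12704 normalized counts in untreated replicates 1 to 4, and 14221, 14696, 14748, 15647 and 15678 in iAs replicates 1 to 5. All libraries labelled iAs were above all labelled untreated, and untreated replicate 2 was low (log2 difference 0.26, SE 0.07, adjusted p = 0.018). Ccna2, the gene of cyclin A2, had 7127, 6279, 6858 and 5799 normalized counts without and 8265, 7524, 8548, 8060 and 8286 with the iAs label. These groups did not overlap either (1.25-fold, log2 difference 0.32, SE 0.07, adjusted p = 0.0030). Ccnb1, the gene of cyclin B1, split the untreated libraries into 7791 and 7864 normalized counts in replicates 1 and 3 and 6334 and 6429 in replicates 2 and 4. It had 8453, 8474, 8330, 9572 and 9384 in the libraries labelled iAs, all above the untreated ones (log2 difference 0.32, SE 0.08, adjusted p = 0.0090). The phosphatase gene Cdc25b rose by less, with overlapping groups (log2 difference 0.21, adjusted p = 0.027). Its call ended when untreated replicate 1, 3 or 4 was dropped, and likewise for iAs replicate 1 or 3 (adjusted p between 0.0596 and 0.0716). It was also lost after rescaling to equal totals (adjusted p = 0.10) and without the 2 deepest libraries (adjusted p = 0.15). Cdc25c, its relative that activates CDK1 at mitotic onset, had 1450 ± 90.7 normalized counts (SD, n = 4) without and 1333 ± 199 (SD, n = 5) with the iAs label (log2 difference -0.13, adjusted p = 0.38). Among the libraries of the most common code ending, the calls of Cdk1 (adjusted p = 0.13) and Ccnb1 (adjusted p = 0.0594) were lost.

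The mitotic kinases and the chromosomal passenger complex were not called, while 30.0% of all genes tested were called in either direction. Plk1 (ENSRNOG00000018815), the kinase of centrosome maturation and mitotic progression, had 9192, 7923, 8882 and 7577 normalized counts in the untreated libraries and 8987, 7892, 9319, 9615 and 9271 in those labelled iAs. The groups overlapped (log2 difference 0.10, 95% interval -0.05 to 0.26, adjusted p = 0.31). Aurka, the spindle pole kinase, had 4111, 3232, 3821 and 3586 normalized counts against 3924, 3683, 3907, 4218 and 4051, again with overlap (log2 difference 0.11, 95% interval -0.05 to 0.26, adjusted p = 0.28). In the passenger complex, which corrects faulty attachments, the kinase gene Aurkb had 8851, 7576, 8636 and 8083 normalized counts against 8907, 8065, 9136, 9808 and 8875. All but untreated replicate 2 lay within the range of the libraries labelled iAs (log2 difference 0.11, adjusted p = 0.22). Its partners Incenp, the scaffold, and Birc5, known as survivin, differed by 0.07 (adjusted p = 0.54) and 0.05 (adjusted p = 0.74). None of these 5 genes passed even at an unadjusted p under 0.05 in limma, and their 95% intervals lay between -0.17 and 0.27.

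Calls in the spindle checkpoint were split, with 60% of 5 genes called higher against 15.1% of all genes tested. The log2 difference was above 0 in all 5, and differences between these genes were not tested. Bub1, Bub1b and Mad2l1 were called higher, and Bub3 and Ttk were not, with a median log2 difference of 0.24 over the 5. Bub1b (ENSRNOG00000007906), which encodes the checkpoint protein BUBR1, had 3286, 2941, 3279 and 2772 normalized counts in the untreated libraries and 4073, 3814, 4169, 4256 and 4263 in those labelled iAs. The highest untreated library was well below the lowest labelled iAs (1.34-fold, log2 difference 0.43, SE 0.06, adjusted p = 4.7e-04). Bub1, a checkpoint kinase, rose alike, at 5986 ± 249 normalized counts (SD, n = 5) with the iAs label against 4524 ± 483 (SD, n = 4) (log2 difference 0.41, adjusted p = 0.0010). Mad2l1, encoding the CDC20 inhibitor MAD2, rose from 2506 ± 222 to 2951 ± 139 (0.24, adjusted p = 0.017), a call lost among the libraries of the most common code ending (adjusted p = 0.17). Ttk, the kinase that starts checkpoint signalling, had 1265 ± 166 against 1359 ± 94.5 normalized counts (adjusted p = 0.40). Bub3, which brings BUB proteins to kinetochores, had 8039 ± 550.1 against 8664 ± 582 (adjusted p = 0.23).

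Of 4 genes of anaphase and mitotic exit 1 was called higher (25%), against 15.1% of all genes tested. This was Ube2c (ENSRNOG00000015131), the ubiquitin-conjugating enzyme of the anaphase-promoting complex. It had 9072, 7498, 8568 and 8180 normalized counts in the untreated libraries and 9824, 10227, 10257, 10600 and 10617 in those labelled iAs. Its groups did not overlap (1.24-fold, log2 difference 0.31, SE 0.06, adjusted p = 0.0019). Cdc20, the activator of that complex, had 10535, 9243, 9432 and 8937 normalized counts against 10545, 9913, 10542, 10903 and 11364. Untreated replicate 1 reached into the other group and Cdc20 just missed the threshold (log2 difference 0.16, SE 0.06, adjusted p = 0.058), but was called without untreated replicate 1 (0.21, adjusted p = 0.022) and without iAs replicate 2 (0.19, adjusted p = 0.039). Pttg1, encoding securin, and Espl1, encoding separase, which securin holds inactive, differed by 0.01 (adjusted p = 0.94) and -0.01 (adjusted p = 0.96). Their 95% intervals were -0.13 to 0.15 and -0.22 to 0.20.

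At the kinetochore 3 of 7 members (42.9%, against 15.1% of all genes tested) were called higher, Spc24, Spc25 and Nuf2. Together with Ndc80, which was not called, they encode the NDC80 complex that binds microtubules. Spc24 (ENSRNOG00000029862) had 2898, 2610, 2682 and 2717 normalized counts in the untreated libraries and 3803, 3770, 4105, 3787 and 3722 in those labelled iAs. The groups were far apart beside their spread, and the difference was the largest of the 43 members and had the smallest p (1.41-fold, log2 difference 0.49, SE 0.05, adjusted p = 5.1e-05). Spc25 rose from 1347 ± 89.2 to 1838 ± 208 normalized counts (0.44, adjusted p = 0.0025) and Nuf2 from 2724 ± 355 to 3324 ± 74.2 (0.30, adjusted p = 0.016), both without overlap. Ndc80 was at 2506 ± 322 against 2720 ± 97.6 (0.13, 95% interval -0.05 to 0.30, adjusted p = 0.26), and was called when the 2 deepest libraries were left out (0.28, adjusted p = 0.030). Cenpa, the histone variant that marks centromeres, had 1975, 1854, 1704 and 1705 normalized counts against 2253, 1896, 2178, 1990 and 1867. Its groups overlapped (log2 difference 0.17, adjusted p = 0.11). Cenpe, a kinetochore motor, differed by 0.02 (adjusted p = 0.85). Cenpf, a large kinetochore protein of late G2, was the lowest member, with 9549, 8177, 9976 and 7975 normalized counts against 9044, 6945, 8470, 6881 and 7172. Its libraries labelled iAs fell into 2 high (replicates 1 and 3) and 3 low, with overlap (log2 difference -0.21, SE 0.10, adjusted p = 0.12). Without iAs replicate 1 it was called lower (-0.27, adjusted p = 0.042).

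**Figure D4:**
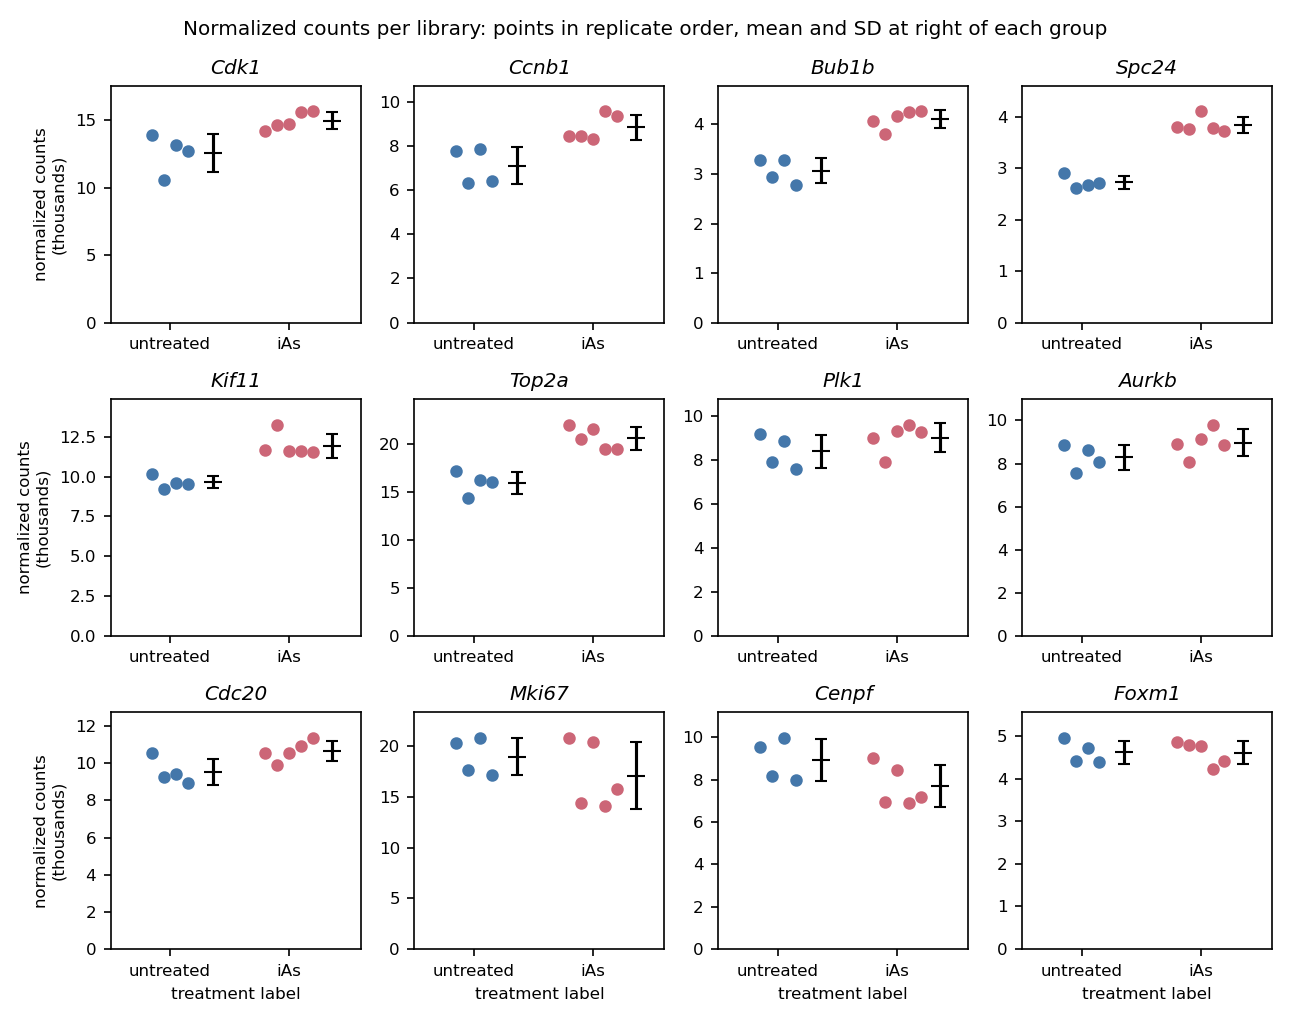
Normalized counts (linear axis from 0) of 12 mitosis genes in each library, points in replicate order, with the mean and SD beside each group (n = 4 untreated, n = 5 iAs). Cdk1, Ccnb1, Bub1b, Spc24, Kif11 and Top2a do not overlap between groups, and the 6 others do.

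Spindle motors and microtubule proteins rose in 4 of 6 members (66.7%, against 15.1% of all genes tested), with a median log2 difference of 0.30. Kif11 (ENSRNOG00000056069), the motor that pushes spindle poles apart, had 10138, 9231, 9595 and 9556 normalized counts in the untreated libraries and 11680, 13264, 11585, 11612 and 11524 in those labelled iAs. All of the latter were higher and iAs replicate 2 stood above the rest (1.24-fold, log2 difference 0.31, SE 0.05, adjusted p = 0.0014). Kif2c, a microtubule depolymerase at centromeres, had 4338, 3609, 4046 and 3377 normalized counts against 5188, 4738, 5026, 5199 and 5148. The groups were again apart (1.32-fold, log2 difference 0.40, SE 0.07, adjusted p = 0.0014). Prc1, which bundles microtubules of the spindle midzone, rose from 10926 ± 958 to 13299 ± 602 normalized counts (0.29, adjusted p = 0.0049), and its partner motor Kif23 from 3274 ± 313 to 4095 ± 329.8 (0.32, adjusted p = 0.0092). Kif23 overlapped through iAs replicate 2, and Prc1 lost its call among the libraries of the most common code ending (adjusted p = 0.0539). Tpx2, an activator of Aurora A, was not called (0.09, adjusted p = 0.33). Kif20a, another midzone motor, ran the other way, at 11320, 9649, 11121 and 9905 normalized counts against 9408, 8879, 9347, 10041 and 9527. It overlapped only through iAs replicate 4 and was not called (-0.15, SE 0.06, adjusted p = 0.079), but was called lower without untreated replicate 2 (-0.19, adjusted p = 0.035), after rescaling to equal totals (-0.18, adjusted p = 0.022) and among the libraries of the most common code ending (-0.22, adjusted p = 0.037).

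Proteins that shape chromosomes gave 2 rises in 6 (33.3%, against 15.1% of all genes tested). Top2a (ENSRNOG00000053047), the topoisomerase that untangles sister DNA, had 17145, 14322, 16176 and 16027 normalized counts in the untreated libraries and 21997, 20454, 21507, 19425 and 19432 in those labelled iAs. No library of one group reached the other (1.29-fold, log2 difference 0.37, SE 0.06, adjusted p = 9.9e-04). Mki67, encoding the proliferation marker Ki-67, had 20272, 17623, 20815 and 17171 normalized counts against 20806, 14359, 20391, 14118 and 15760. In the group labelled iAs, replicates 1 and 3 matched the highest untreated libraries while the other 3 lay below all 4, and the difference was not called (-0.17, 95% interval -0.43 to 0.10, adjusted p = 0.33). Of the condensin genes, whose complex compacts chromosomes, Ncapg rose from 1154 ± 176 to 1441 ± 93.9 normalized counts (0.33, adjusted p = 0.026). That call was lost without untreated replicate 2 (adjusted p = 0.0511), without iAs replicate 1 (adjusted p = 0.0595) and after rescaling to equal totals (adjusted p = 0.0536). Among the libraries of the most common code ending the difference was 0.20 (adjusted p = 0.14). Ncapd2, Ncaph and Smc2, of the same complex, differed by 0.11, 0.09 and 0.07 and were not called (adjusted p = 0.23, 0.32 and 0.35).

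The 2 transcription factors of the late cell cycle differed in their calls, a difference that was not tested. Mybl2, encoding B-MYB, had 2521, 2197, 2355 and 2138 normalized counts in the untreated libraries and 3166, 3175, 3291, 2298 and 2694 in those labelled iAs. Replicate 4 labelled iAs lay among the untreated libraries (log2 difference 0.34, SE 0.10, adjusted p = 0.026). The call rested on several libraries, since dropping untreated replicate 2, 3 or 4 ended it, and so did dropping iAs replicate 1, 2 or 3 (adjusted p between 0.0514 and 0.0664) and after rescaling to equal totals (adjusted p = 0.0671). Among the libraries of the most common code ending the difference was 0.15 (adjusted p = 0.45), and without the 2 deepest libraries it was 0.42 (adjusted p = 0.0580). Foxm1, encoding the forkhead factor of G2 genes, had 4958, 4411, 4714 and 4398 normalized counts against 4856, 4790, 4765, 4224 and 4418. The groups covered the same range (log2 difference 0.00, 95% interval -0.13 to 0.13, adjusted p = 0.97).

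All 3 cytokinesis genes were called higher and did not overlap between groups, against 15.1% and 13.0% of all genes tested. Racgap1 (ENSRNOG00000049033), which with Kif23 forms the centralspindlin complex, had 17429, 14294, 17116 and 15181 normalized counts in the untreated libraries and 20029, 19697, 20451, 20840 and 20203 in those labelled iAs. The latter were also closer together (1.27-fold, log2 difference 0.34, SE 0.06, adjusted p = 0.0015). Anln, the actin-binding anillin of the cleavage furrow, had 4048, 3617, 3746 and 3292 normalized counts against 5124, 4379, 4676, 5096 and 4674 (1.30-fold, log2 difference 0.38, SE 0.07, adjusted p = 0.0015). Ect2, the RhoA activator that centralspindlin recruits, rose from 4929 ± 428 to 6342 ± 420.3 normalized counts (0.37, adjusted p = 0.0021). These genes kept their calls in all 23 alternatives run, as did Ccna2, Bub1, Bub1b, Ube2c, Spc24, Spc25, Kif11, Kif2c and Top2a.

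The 22 members that were not called had 95% intervals within -0.43 and 0.33. These bounds are the outermost interval ends over the 22 members and not limits of detection. Some differences inside them were called, such as that of Cdc25b (0.21), and others may go uncalled at this spread between libraries. RefSeq lists pseudogenes named for 7 measured members, 1 each for Cdk1, Kif11, Tpx2, Prc1 and Mki67, 3 for Aurka and 4 for Ube2c. The share of reads that such copies took was not tested, so the values of these members are less certain.

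Other genes of the same processes were taken from lists chosen by function. Of 72 rows of further mitosis genes, in which Spag5 has 2, 11 were called higher and 4 lower (median log2 difference 0.06). The 15.3% higher was close to the 15.1% of all genes tested, and the 5.56% lower was below their 14.9%. The rises with the smallest p were Cenpw, a kinetochore protein (0.56, adjusted p = 6.7e-04), and Lmnb1, the lamin B1 gene (0.25, adjusted p = 0.0019). The 4 lower were Zwint, a kinetochore adaptor (-0.43, adjusted p = 6.8e-05), Ckap2 (-0.28), Mastl, the Greatwall kinase gene (-0.29), and Psrc1 (-0.23). There were 7 rises without untreated replicate 2 or 4, and 1 fall without untreated replicate 1 or 3 and 2 without iAs replicate 2. Of 17 genes of the anaphase-promoting complex and its cofactors, 3 rose and 1 fell (median -0.02), and the share of 17.6% higher was close to the 15.1% of all genes tested. The cofactor Ube2s (0.27, adjusted p = 0.0066), the inhibitor Fbxo5 (0.31, adjusted p = 0.022) and the subunit Cdc27 (0.18) rose, and the subunit Anapc2 fell (-0.18, adjusted p = 0.017). Without untreated replicate 2 or 4 there was 1 rise, without untreated replicate 3 there were 0 falls (1 at an unadjusted p under 0.05 in limma) and without iAs replicate 2 there were 2. Cohesin genes, which hold sister chromatids together, rose in 4 of 12, or 33.3%, and fell in 0 (0 at an unadjusted p under 0.05 in limma): Smc3 (0.29, adjusted p = 0.0015), Stag2 (0.24, adjusted p = 0.0040), Pds5a (0.23) and Rad21 (0.18).

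Regulators and neighbouring phases were measured too. Among 20 genes of the DREAM and MuvB complexes, E2F factors and NF-Y, 6 rose and 3 fell (median 0.13), against 15.1% of all genes higher and 14.9% lower, so that the falls were at the background share. Tfdp1, the dimer partner of E2F factors (0.33, adjusted p = 2.0e-04), and Nfyb, a subunit of the CCAAT-binding factor NF-Y (0.40, adjusted p = 0.0028), had the smallest p among the rises. The falls were in the MuvB subunits Lin37 (-0.38, adjusted p = 0.0017) and Lin54 (-0.24, adjusted p = 0.0059), the latter the subunit that binds CHR elements, and in the pocket protein gene Rbl2 (-0.25). Of 49 DNA replication genes 11 rose and 0 fell (1 at an unadjusted p under 0.05 in limma), with a median of 0.08. Mcm7, a subunit of the replicative helicase (0.91, adjusted p = 7.7e-06), and Pola1, the catalytic subunit of DNA polymerase alpha (0.50, adjusted p = 5.0e-05), led them, and 1 gene fell without untreated replicate 2. Of 16 measured CDK inhibitors and arrest genes 2 rose and 3 fell (median -0.11), shares of 12.5% and 18.8% that were close to the 15.1% and 14.9% of all genes. Ccng2 (0.56, adjusted p = 0.0029) and Sesn1 (0.24, adjusted p = 0.0090) rose, and the stress kinase gene Plk3 (-0.62, adjusted p = 1.3e-04), Gadd45b (-0.70, adjusted p = 0.0046) and Ccng1 (-0.30) fell. Falls numbered 5 without untreated replicate 2 and 6 without iAs replicate 2. Cdkn1a, encoding the CDK inhibitor p21, was not called (-0.05, 95% interval -0.26 to 0.17, adjusted p = 0.75). Shares called higher were 15.3% of the further mitosis genes, 22.4% of the replication genes and 48.8% of the 43 members. The difference between these shares was not tested. Members and lists were chosen with earlier results of these data known, and the part of that choice in the shares was not tested either.

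**Figure D5:**
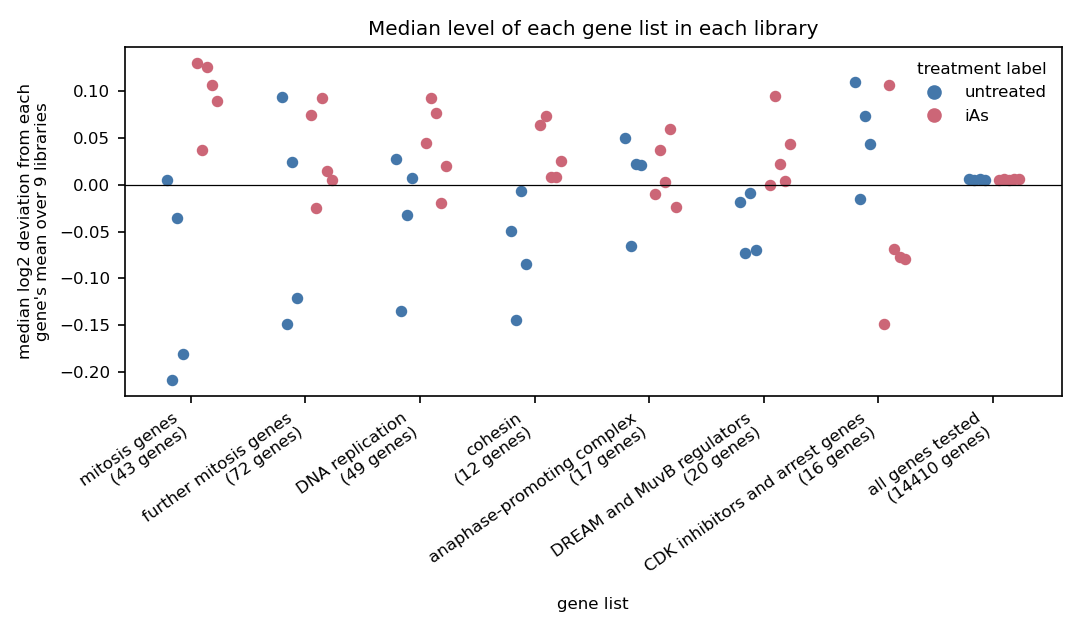
Median over each gene list of the log2 deviation from each gene's mean over the 9 libraries, 1 point per library in replicate order, by treatment label. For the mitosis genes the points labelled iAs lie between 0.037 and 0.130, and the untreated ones between -0.208 and 0.005, with untreated replicates 2 and 4 lowest.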

How the data were processed

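The authors deposited a signal per gene: read counts divided by DESeq2 normalization factors, per the labels' name of the table. For the authors' own steps, the submitters' processing notes list DESeq2, STAR, Salmon and build rn6, giving neither a version nor a role. Low values scattered around 1 step per library, so whole reads were not recovered and count tests were not run. Columns were matched to samples by the description. For 4 libraries title and description carry different codes, always within a group.

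Genes with a mean of at least 10 entered limma 3.58.1 (R 4.3.3, variance trend) on log2(value + 1), which damps changes of low genes. Adjustment was by Benjamini-Hochberg over all 14410 genes, at 0.05. Members and lists were chosen with earlier results of these data known. Values per library are given for a fixed set of 12 members and, per role, for those of smallest p and of largest difference. In the other lists the 2 called genes of smallest p per direction are named. Cenpf, Kif20a, Cdkn1a, Hmox1, Mt1, Nqo1, Gclm, Cd68 and further called genes of short lists were added after their values were seen. Alternatives covered pseudocounts, filters, scaling, variance models, blocks, code endings and each library left out. Small RNA libraries were not used here.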

Additional observations from a re-analysis of the deposited data

Results flagged for a closer look

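In 86 groups (43 members in each of 2 treatment labels) the highest or lowest library was compared with the rest of its group, and 5 stood apart by Dixon's gap over range at the 95% level, where chance flags about 1 in 20 groups. Bub3 and Nuf2 were each lowest in untreated replicate 2, at 7217.9 and 2197.4 normalized counts, far below the other untreated libraries. Spc24 was highest in iAs replicate 3, at 4105 normalized counts. Kif11 was highest in iAs replicate 2, at 13264, and Kif23 was lowest in the same library, at 3514.6. The calls of Spc24 and Kif11 held without these libraries, and so did those of Nuf2 and Kif23.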

How the results depend on the processing

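Of the 21 members called higher, 12 kept their call in all 23 alternatives, 9 lost it in at least 1 and 0 changed sign. Rises of members numbered 18 to 21 and falls 0 to 1 with 1 library left out. Falls were 1 after equal totals, 1 after quantile normalization, 2 with array weights (Cenpf and Kif20a), 1 with the code ending as a term and 1 within the most common ending. Calls over all genes ran from 1753 to 2067 higher and 1671 to 2009 lower with 1 library left out, and without the 2 deepest libraries were 1260 and 1121. The labels give no pairing of the libraries. Same-numbered deviations correlated at -0.041 to 0.031, and 0 of 8 libraries correlated best with their own number. Pairs of the same code ending correlated at -0.059 to 0.174. With the replicate block 14 members rose and 0 fell (1 at an unadjusted p under 0.05 in limma), and over all genes 1351 rose and 1410 fell. Under it further mitosis rises were 6, anaphase-promoting complex rises 1 and falls 0 (1 unadjusted), DREAM rises 3, replication rises 7 and arrest gene rises 1. With the ending as a term further mitosis rises were 17, DREAM falls 5, replication falls 1 and arrest falls 6. Within the most common ending these were further mitosis 4 rises, anaphase-promoting 0 rises (2 unadjusted) and 0 falls (3 unadjusted), cohesin 2 rises, DREAM 3 rises, replication 4 rises and 1 fall, and arrest 7 falls. Equal totals gave 7 further mitosis, 2 anaphase-promoting, 1 replication and 5 arrest falls, array weights 8, 2, 1 and 6 with 5 DREAM falls, and quantile normalization 1 replication fall. With 1 library left out, further mitosis rises were 7 to 13 and falls 1 to 5, anaphase-promoting rises 1 to 3 and falls 0 to 2, replication falls 0 to 1, and arrest falls 2 to 6.

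Some uncalled members near 0 changed sign. Within the most common ending these were Incenp (-0.0359), Ttk (-0.0532), Cenpe (-0.1147), Ndc80 (-0.0289), Tpx2 (-0.0312), Ncaph (-0.0183) and Smc2 (-0.0038). Pttg1 was -0.0252 with equal totals, -0.0049 with array weights, -0.0124 with the replicate block and -0.0049 with the ending as a term. Cenpe was -0.0126 with equal totals and -0.0388 with array weights. Foxm1 was 0.0119 with quantile normalization, 0.0116 with the replicate block and 0.0640 without the 2 deepest libraries, where Espl1 was 0.0925. With 1 library left out, Birc5 ran from -0.0090 to 0.1180, Incenp from -0.0032 to 0.1024, Pttg1 from -0.0229 to 0.0539, Espl1 from -0.0826 to 0.0513, Cenpe from -0.0138 to 0.0588 and Foxm1 from -0.0264 to 0.0313. The cause was not tested in any of these. Count tests on recovered reads were not run.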
